A study of Homo sapiens with 6 samples.

Results

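The 10 genes described here, VEGFA, APLN, ADM, EGLN1, EGLN3, ANKRD37, P4HA1, BNIP3, BNIP3L and KDM3A, are linked to blood vessel growth and to the response to low oxygen. They were taken by symbol from expression tables that together listed 26665 gene entries, with each name that could not be matched counted as its own entry. They were selected on their levels and changes in these same libraries, so their changes are a description and carry no test. Expression was measured by RNA-seq in C4-2B, a human prostate cancer cell line that descends from LNCaP and grows in bone. There were 6 libraries in 3 experiments, each made of 1 treated library and 1 vehicle library. The treated libraries came from cells given SR2211 at 5 µM, XY011 at 5 µM or enzalutamide (ENZ) at 20 µM, and each was set against the vehicle library of its own experiment. SR2211 is an inverse agonist of the nuclear receptor RORγ, XY011 is known here by its code name, and enzalutamide is a drug used against prostate cancer. In all 6 libraries RNA was taken 48 h after addition, and all cells, vehicle included, were kept in a medium whose serum was mostly charcoal-stripped, which mimics castration. No label speaks of low oxygen. The titles gave the groups, although the extraction text names another code in place of XY011 for that pair and SR2211 in place of ENZ for the third.

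Cells sense oxygen through prolyl hydroxylases of the EGLN family, which mark the alpha subunits of hypoxia-inducible factor (HIF) for destruction by the VHL ubiquitin ligase. When oxygen is short the alpha subunit escapes, pairs with ARNT and binds short DNA motifs near its target genes. These targets include secreted angiogenic factors such as VEGFA, glycolytic enzymes, collagen-modifying enzymes, mitophagy receptors and the hydroxylases EGLN1 and EGLN3 themselves, which form a feedback loop. Several of them also answer to other signals, VEGFA to the integrated stress response for instance.

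Upstream sequence was found in RefSeq (GRCh38.p14) for 8 of the 10 genes, all but VEGFA and BNIP3L. The window of 250 bases before to 50 bases after the start was searched on both strands for the HIF-binding cores ACGTG and GCGTG. At least 1 core was present in 7 of the 8 windows, and EGLN3 had none. Among 35116 windows of the same length over all genes, 48.4% held at least 1 core, and these cores are rich in G and C. The median G+C content was 68.8% in the 8 windows and 58.7% in all windows. The nuclear receptor motif AGGTCA, which ROR proteins bind, was in 0 of the 8 windows and in 13.8% of all. The composite TGATGNAA, bound by ATF4 with CHOP or C/EBP, was in 0 of the 8 and in 3.62% of all. A match is not evidence of binding, and a missing match covers these letters in this window alone. The 250 bases before the start are shown for APLN, the gene with the largest decrease, for ANKRD37 and BNIP3, which held the most cores, and for KDM3A, which was higher with XY011. Capitals mark the cores on either strand. In ANKRD37 and BNIP3, 2 of the matches are the opposite strands of a palindromic CACGTG, a motif in 7.26% of all windows.
APLN, chrX:129654957-129655206, minus strand: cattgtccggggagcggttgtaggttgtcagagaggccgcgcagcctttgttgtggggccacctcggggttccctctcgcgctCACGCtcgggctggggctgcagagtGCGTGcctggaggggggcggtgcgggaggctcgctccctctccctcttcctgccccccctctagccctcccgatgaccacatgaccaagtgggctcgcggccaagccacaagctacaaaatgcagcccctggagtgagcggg
ANKRD37, chr4:185396591-185396840, plus strand: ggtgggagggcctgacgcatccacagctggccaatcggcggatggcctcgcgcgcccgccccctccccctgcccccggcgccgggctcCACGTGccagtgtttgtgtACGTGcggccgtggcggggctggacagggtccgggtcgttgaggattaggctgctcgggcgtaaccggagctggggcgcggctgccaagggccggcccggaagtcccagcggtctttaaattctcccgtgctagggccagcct
BNIP3, chr10:131981924-131982173, minus strand: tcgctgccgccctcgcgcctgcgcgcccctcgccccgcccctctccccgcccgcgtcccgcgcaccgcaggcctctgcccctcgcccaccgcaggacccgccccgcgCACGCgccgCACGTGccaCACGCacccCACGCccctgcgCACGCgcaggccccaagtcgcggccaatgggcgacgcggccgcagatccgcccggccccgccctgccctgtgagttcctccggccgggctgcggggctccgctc
KDM3A, chr2:86441121-86441370, plus strand: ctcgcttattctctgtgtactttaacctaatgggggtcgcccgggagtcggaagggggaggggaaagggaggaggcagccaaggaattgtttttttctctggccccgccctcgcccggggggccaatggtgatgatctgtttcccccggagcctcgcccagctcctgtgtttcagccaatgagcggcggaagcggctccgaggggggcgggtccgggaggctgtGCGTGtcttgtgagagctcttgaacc

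The SR2211 tables give RPKM (reads scaled for the length of the gene and the depth of the library) and the other tables FPKM (the same for fragments). Depth of the SR2211 experiment was read back from hairpin RNA genes of known length as 8163382 mapped reads with SR2211 and 8200243 in vehicle, and depth of the other libraries was not recovered. Changes are log2((treated + 1)/(vehicle + 1)), so low genes are understated. A gene was tested by size where at least 1 library of the pair reached 1, and it was called higher from a log2 change of 1 upward and lower from -1 downward. The split over all genes depends on scaling. With SR2211, 620 genes were called higher and 699 lower, but 751 and 560 when the pair was centred on its median gene, and with XY011 the share of calls that were higher was 36.5%, but 49.6% after quantile scaling. The ENZ vehicle stood at 1.44 times the SR2211 vehicle for the median of 7629 genes, and the XY011 vehicle at 0.945 times, so levels are compared across experiments only loosely. All 8 prostate luminal markers looked at, such as KLK3 and TMPRSS2, were at 1 or more in every library. Their summed level was lower in each treated library than in its own vehicle. It was 1131 with SR2211, against 2883 in vehicle, and 1323 with XY011, against 2933 in vehicle. With ENZ it was 3127, against 5217 in vehicle. None of the endothelial markers listed reached 1 in any library (summed level 0.531 to 1.54 in treated and 1.16 to 2.21 in vehicle libraries). Leukocyte markers summed to 5.77 to 19.5, and fibroblast and smooth muscle markers to 2.95 to 7.66, but to 52.6 with ENZ and 35.2 in its vehicle. Their part in the results was not tested.

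The 10 genes did not move as a block. With SR2211, 1 was called higher and 2 lower of 9 tested, beside 5.1% and 5.75% of all genes tested (10.9% in all). With XY011, 2 were higher and 3 lower of 9, beside 7.59% and 13.2% of all genes (20.8% in all). With ENZ, 0 of 9 passed the size rule in either direction, beside 3.68% and 4.71% of all genes (8.39% in all), and 8 of the 9 changes were below 0. ADM was the untested gene, being under 1 or not listed in each pair. The median log2 change was -0.28 with SR2211 (all genes tested -0.07), -0.15 with XY011 (all -0.14) and -0.47 with ENZ (all -0.02). Since the genes were chosen with these contrasts in view, nothing is read from these counts and medians. With 1 library per group there was no replicate check, and p-values cannot be given. In bulk RNA, fewer cells carrying a transcript and less of it per cell cannot be told apart.

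**Figure D1:**
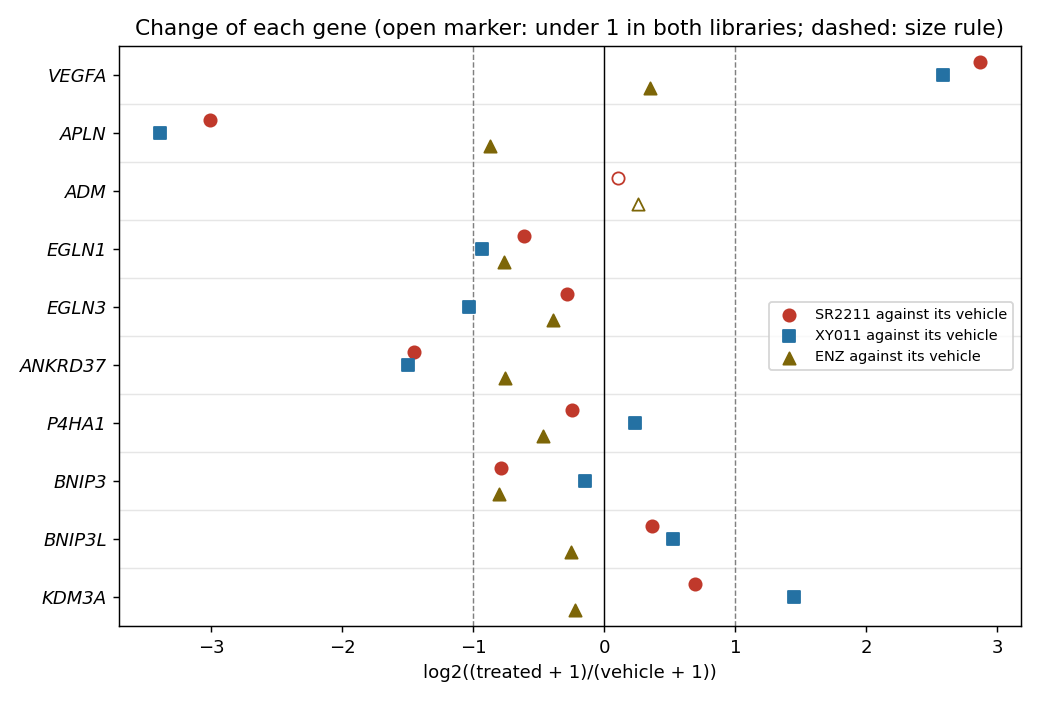
Log2 change of each of the 10 genes (horizontal axis, log2((treated + 1)/(vehicle + 1))) with SR2211, XY011 and ENZ, each against the vehicle of its own experiment, 1 library per group. VEGFA lies far to the right and APLN far to the left with SR2211 and XY011, while every ENZ marker lies between the dashed lines at -1 and 1.

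Among the secreted ligands, VEGFA and APLN had the largest changes of the 10 genes with SR2211 and XY011, in opposite directions. VEGFA, the main growth factor for endothelial cells, was at 195 RPKM with SR2211, against 25.9 RPKM in its vehicle. It was at 134 FPKM with XY011, against 21.5 FPKM in vehicle. With ENZ it was at 61.6 FPKM, against 48.2 FPKM in vehicle. All 3 treated libraries lay above all 3 vehicles. The log2 changes were 2.86 with SR2211, 2.59 with XY011 and 0.35 with ENZ. Ranked from the highest, VEGFA was gene 31 of 12151 tested with SR2211, gene 53 of 12615 with XY011 and gene 4113 of 19264 with ENZ. Among 13435 genes listed in every table, it stood at the 98.2, 96.8 and 84.2 percentile of level with SR2211, XY011 and ENZ, against 77.3, 73.8 and 79.0 in the matching vehicles.

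Read numbers behind the RPKM values were recovered where both values of a gene gave whole reads over 1 whole gene length, as for 90.2% of 15561 genes. The smallest such numbers for VEGFA were 5849 reads with SR2211 and 781 in vehicle, at a length of 3677 bases. Their ratio, scaled for depth, was 7.52, with an exact 95% interval of 6.98 to 8.12. This interval covers counting error alone and says nothing of the spread between cultures. If more reads were counted, their numbers are whole multiples of these, with the same ratio and a narrower interval. An annotated gene on the opposite strand, AL136131.3, overlaps exons of VEGFA (GENCODE 29).

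APLN encodes apelin, a secreted peptide whose receptor sits on endothelial and heart muscle cells. It was at 1.82 RPKM with SR2211, against 21.7 RPKM in vehicle, and at 0.64 FPKM with XY011, against 16.2 FPKM in vehicle. The ENZ library had 12.0 FPKM, against 22.9 FPKM in vehicle. Every treated library was below every vehicle library. The log2 changes were -3.01 with SR2211, -3.39 with XY011 and -0.88 with ENZ, the last short of the size rule. Counted from the lowest, APLN was gene 3 of 12151 with SR2211, gene 12 of 12615 with XY011 and gene 1192 of 19264 with ENZ. The smallest whole reads were 24 with SR2211 and 288 in vehicle, a ratio of 0.0837 (exact 95% interval 0.0528 to 0.127, counting error alone). VEGFA and APLN stood near each other in the vehicles, with VEGFA to APLN ratios of 1.19, 1.33 and 2.11 in the vehicles of SR2211, XY011 and ENZ. With treatment the ratios were 107, 210 and 5.13 in the same order. The ratios with SR2211 and XY011 rest on low APLN values, so their size is uncertain. The log2 change of APLN with XY011 was -4.46 at a pseudocount of 0.1 and -1.91 at a pseudocount of 5.

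ADM, which encodes adrenomedullin, a vessel-relaxing peptide, was barely detected. Its 0.0845 RPKM with SR2211 equals 1 read over 1449 bases, against the table's stand-in for no reads, 0.01, in vehicle. A count of 1 read against 0 cannot show a difference at this depth. The XY011 table does not list ADM, and the ENZ experiment had 0.795 FPKM with ENZ and 0.499 FPKM in vehicle, both under the level needed for a call.

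**Figure D2:**
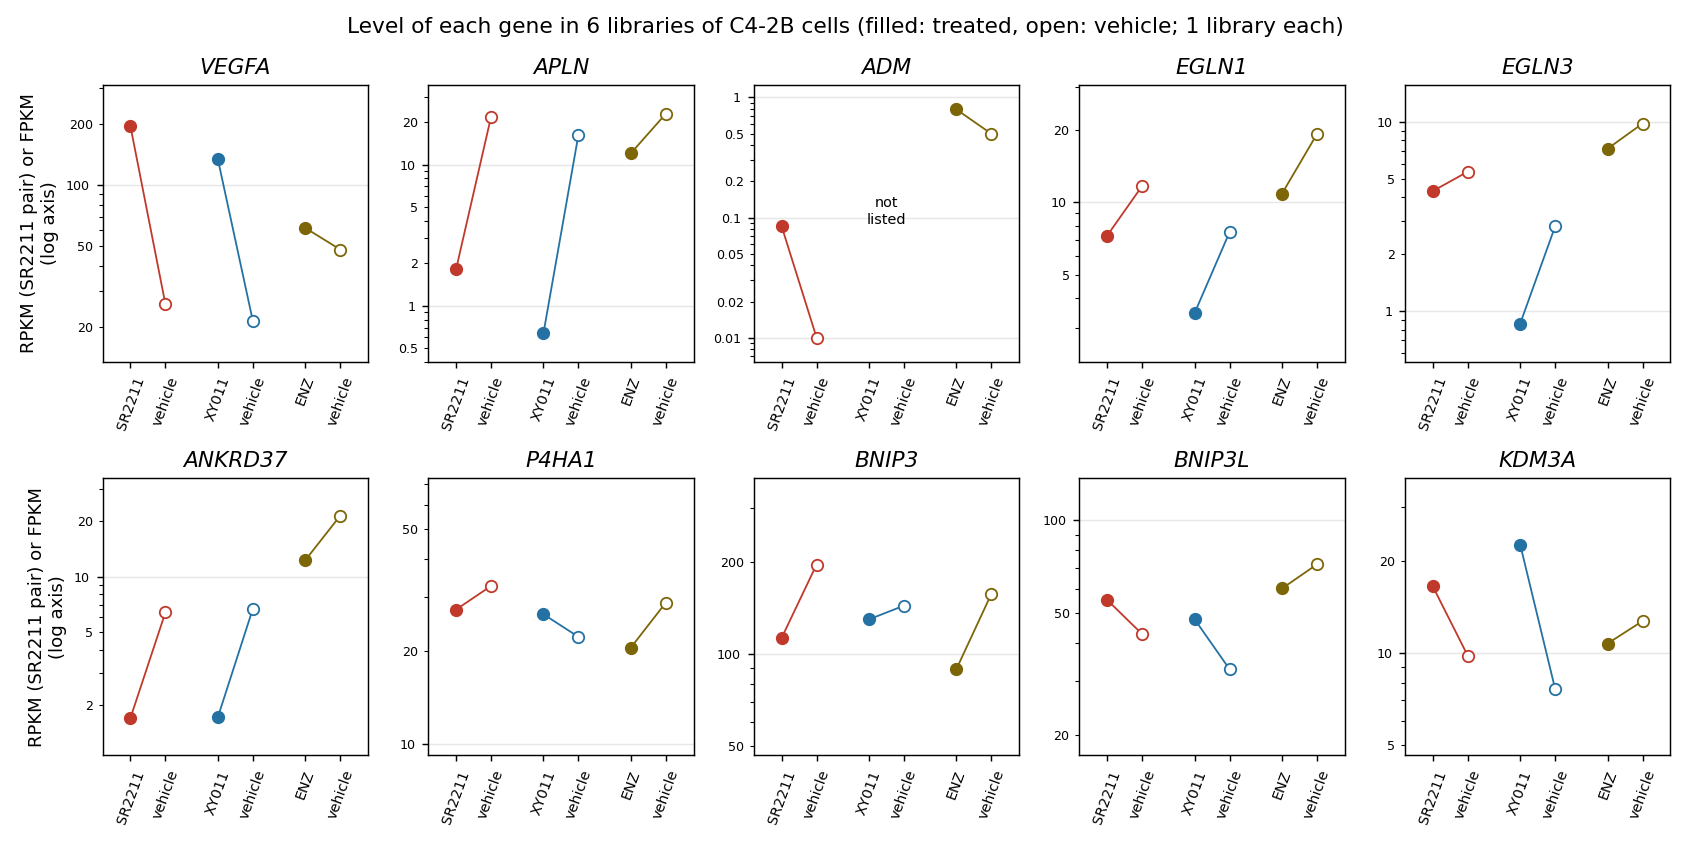
Level of each gene in 6 libraries, as RPKM in the SR2211 experiment and FPKM in the XY011 and ENZ experiments, on a log axis whose range differs between panels. Filled points are treated and open points vehicle libraries, joined within an experiment, and 0.01 for ADM is the stand-in for no reads. The lines of VEGFA slope one way and those of APLN, ANKRD37, EGLN1, EGLN3 and BNIP3 the other in all 3 experiments.

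EGLN1, EGLN3 and ANKRD37 stood lower in every treated library than in its own vehicle, by amounts that mostly missed the size rule. EGLN1 encodes PHD2, the main hydroxylase of HIF alpha subunits. It was at 7.28 RPKM with SR2211, against 11.7 RPKM in vehicle, at 3.47 FPKM with XY011, against 7.52 FPKM in vehicle, and at 10.9 FPKM with ENZ, against 19.2 FPKM in vehicle. The log2 changes of EGLN1 were -0.62, -0.93 and -0.77 with SR2211, XY011 and ENZ. In the SR2211 experiment EGLN1 had 422 reads with SR2211 and 681 in vehicle, a ratio of 0.622 (exact 95% interval 0.550 to 0.704, counting error alone).

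EGLN3 encodes PHD3, a relative that HIF induces strongly in many cells. It was at 4.32 RPKM with SR2211, against 5.47 RPKM in vehicle, a ratio of 0.790. The smallest whole reads were 48 and 61, with a counting interval of 0.530 to 1.17, which includes no change. At 2722 bases, near an annotated transcript of 2709, the reads would be 96 and 122. That interval, 0.599 to 1.04, includes no change either. With XY011 EGLN3 was at 0.86 FPKM, against 2.81 FPKM in vehicle (log2 -1.03), and with ENZ at 7.23 FPKM, against 9.83 FPKM in vehicle (log2 -0.40). The XY011 call rests on low values and misses the size rule when the pair is centred on its median gene (log2 -0.98) or quantile scaled (-0.87). The vehicles themselves ranged over 2.81 to 9.83, and the EGLN3 values with SR2211 and ENZ lay inside that range. EGLN2, the third hydroxylase, was at 13 FPKM with XY011, against 10.3 FPKM in vehicle (log2 0.31). With ENZ it was at 32.5 FPKM, against 42.6 FPKM in vehicle (log2 -0.38). In the SR2211 tables it was under 1 (0.433 RPKM with SR2211 and 0.280 RPKM in vehicle). This vehicle value of EGLN2 is far below those of the other vehicles, and the reason was not tested.

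ANKRD37, a small ankyrin-repeat gene known as a HIF target, was called lower with SR2211 and XY011. It was at 1.71 RPKM with SR2211, against 6.40 RPKM in vehicle, at 1.72 FPKM with XY011, against 6.68 FPKM in vehicle, and at 12.3 FPKM with ENZ, against 21.5 FPKM in vehicle. The log2 changes of ANKRD37 were -1.45, -1.50 and -0.76 with SR2211, XY011 and ENZ, and the first 2 treated libraries were below all 3 vehicles. Only 13 reads with SR2211 and 49 in vehicle lie behind the first pair (ratio 0.267, exact 95% interval 0.133 to 0.499, counting error alone). Its annotated exons overlap those of UFSP2 on the opposite strand (GENCODE 29), and it is not stated whether reads were counted by strand. UFSP2 had log2 changes of 0.12 with SR2211, -0.09 with XY011 and 0.47 with ENZ.

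P4HA1, the catalytic subunit of the enzyme that hydroxylates prolines in collagen, passed the size rule in none of the 3 pairs. It was at 27.3 RPKM with SR2211, against 32.6 RPKM in vehicle, at 26.4 FPKM with XY011, against 22.3 FPKM in vehicle, and at 20.5 FPKM with ENZ, against 28.8 FPKM in vehicle. The log2 changes were -0.25, 0.23 and -0.47, and the first 2 treated libraries lay within the range of the vehicles. From 659 reads with SR2211 and 790 in vehicle the ratio was 0.838 (exact 95% interval 0.754 to 0.930, counting error alone). An annotated antisense gene overlaps its exons. P4HA2, the alternative catalytic subunit, was at 19.0 RPKM with SR2211, against 7.68 RPKM in vehicle (log2 1.21), and at 13.2 FPKM with XY011, against 6.10 FPKM in vehicle (log2 0.996). Thus P4HA1 exceeded P4HA2 by 1.44 times with SR2211, against 4.25 times in vehicle, and by 2.01 times with XY011, against 3.65 times in vehicle. With ENZ, P4HA1 exceeded P4HA2 by 2.03 times, against 2.58 times in vehicle.

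BNIP3 and BNIP3L (NIX) encode related receptors in the outer mitochondrial membrane that mark mitochondria for autophagy. BNIP3 was the most abundant of the 10 genes in all vehicles, at the 98.1, 96.7 and 93.7 percentile of level in those of SR2211, XY011 and ENZ. It was at 113 RPKM with SR2211, against 196 RPKM in vehicle, at 130 FPKM with XY011, against 144 FPKM in vehicle, and at 89.3 FPKM with ENZ, against 157 FPKM in vehicle. The log2 changes of BNIP3 were -0.79, -0.15 and -0.81 with SR2211, XY011 and ENZ. Its 3 treated values were below all 3 vehicles as deposited, but the SR2211 and XY011 values fell inside the vehicle range once each experiment was scaled to the median gene of its vehicle.

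BNIP3L was at 55.0 RPKM with SR2211, against 42.6 RPKM in vehicle, at 47.6 FPKM with XY011, against 32.8 FPKM in vehicle, and at 60.0 FPKM with ENZ, against 71.9 FPKM in vehicle. The log2 changes of BNIP3L were 0.36, 0.53 and -0.26, none past the size rule, and its 3 treated values lay within the range of the vehicles. After the same scaling the SR2211 and XY011 values lay above that range. For BNIP3, the smallest whole reads were 1414 with SR2211 and 2463 in vehicle, at a length of 1535 bases. Their ratio was 0.577 (exact 95% interval 0.540 to 0.616, counting error alone). At 3070 bases, near an annotated transcript of 3066, the reads would be 2828 and 4926 (0.550 to 0.604). For BNIP3L, the smallest whole reads were 315 with SR2211 and 245 in vehicle, at 701 bases, a ratio of 1.29 (1.09 to 1.53). At 3505 bases, nearer an annotated transcript of 3610, they would be 1575 and 1225 (1.20 to 1.39). Per length, BNIP3 exceeded BNIP3L by 2.05 times with SR2211, against 4.59 times in vehicle. The ratio was 2.72 with XY011, against 4.39 in vehicle, and 1.49 with ENZ, against 2.18 in vehicle, so it was smaller in every treated library than in its own vehicle. BNIP3L shares exon positions with PNMA2 on the opposite strand, which was at 0.202 RPKM with SR2211, against 0.352 RPKM in vehicle, and at 0.95 FPKM with XY011, against 1.39 FPKM in vehicle.

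KDM3A encodes a demethylase that removes repressive methyl marks from histone H3. It was at 16.5 RPKM with SR2211, against 9.79 RPKM in vehicle, at 22.5 FPKM with XY011, against 7.63 FPKM in vehicle, and at 10.7 FPKM with ENZ, against 12.7 FPKM in vehicle. The SR2211 and XY011 values lay above all 3 vehicles and the ENZ value among them, or below them after scaling. The log2 changes of KDM3A were 0.70, 1.45 and -0.22, of which XY011 alone passed the size rule. From 660 reads with SR2211 and 394 in vehicle the ratio was 1.68 (exact 95% interval 1.48 to 1.91, counting error alone).

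Against the range of the 3 vehicle libraries, the only spread between libraries of one labelled condition, 6 of 9 treated values lay outside with SR2211 (2 above, 4 below). This held for 52.6% of 11714 genes. With XY011, 7 of 9 lay outside (2 above, 5 below), against 62% of 11700 genes, and with ENZ 4 of 9 (1 above, 3 below), against 56.9% of 12457 genes. Lying outside the vehicles was therefore common for any gene. Scaling each experiment to the median gene of its vehicle, tried after the data were seen, gave 6, 7 and 6 of 9, against 53.5%, 62.6% and 58.9% of genes.

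SR2211 and XY011 were used at the same dose and time, and their changes can be set side by side, each pair having its own vehicle. P4HA1 was the gene of the 9 tested whose changes had opposite signs, -0.25 with SR2211 and 0.23 with XY011. VEGFA was called higher with both, against 3.25% of 11634 genes tested in both experiments, and APLN and ANKRD37 lower with both, against 4.58%. KDM3A (0.70 with SR2211, 1.45 with XY011) and EGLN3 (-0.28 and -1.03) differed by 0.75 in size, and BNIP3 (-0.79 and -0.15) by 0.64. The absolute difference of the median gene was 0.30, and 86.8%, 86.8% and 81.2% of genes differed by less than KDM3A, EGLN3 and BNIP3. ANKRD37 differed by 0.05 and VEGFA by 0.28. No interval or test of such a difference can be made from 1 pair per compound. ENZ was used at another dose, and its values stand beside the others with no test of a difference.

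**Figure D3:**
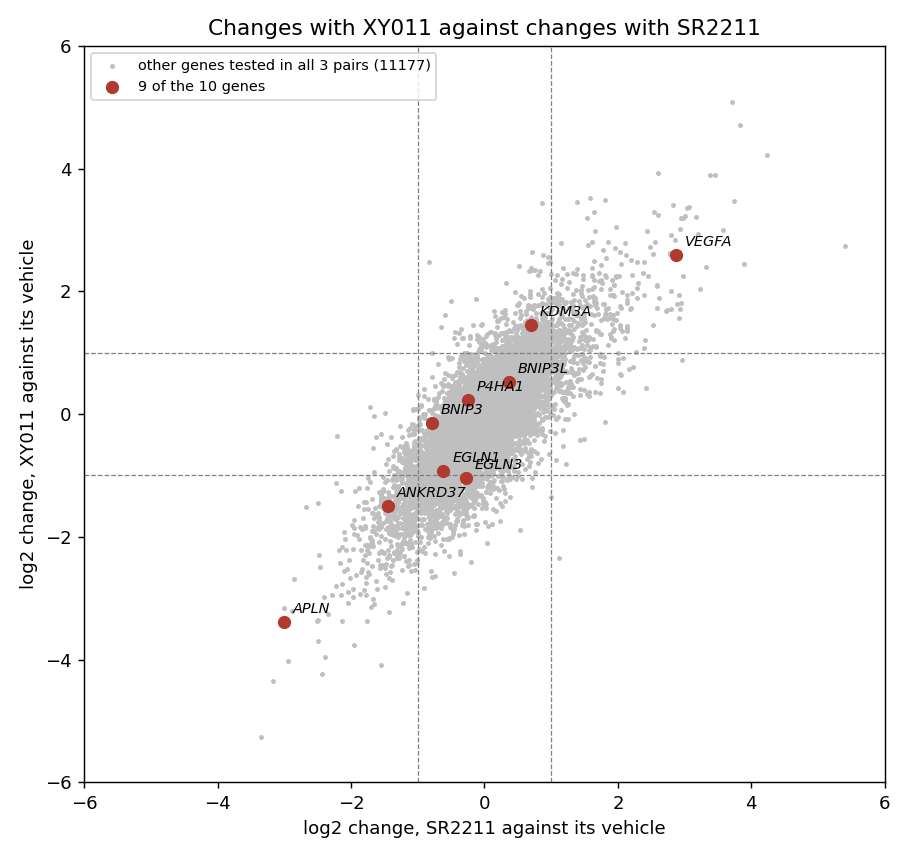
Log2 change with XY011 (vertical axis) against log2 change with SR2211 (horizontal axis) for genes tested in all 3 pairs, with 9 of the 10 genes in red and dashed lines at -1 and 1. VEGFA and APLN lie at opposite ends of the cloud, and KDM3A passes the line at 1 on the XY011 axis only.

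For VEGFA and APLN, the 5 genes of 11186 with the closest set of 3 log2 changes (Euclidean distance) were listed as a description. Closest to VEGFA were CTH (distance 0.33), which encodes cystathionine gamma-lyase, and SESN2 (0.45), a stress-induced inhibitor of mTORC1. MALAT1 (0.48), a nuclear long noncoding RNA, the cell cycle inhibitor gene CDKN1A (0.49) and DLGAP4 (0.50) followed. CTH was at 53.1 RPKM with SR2211, against 6.44 RPKM in vehicle, and at 41.7 FPKM with XY011, against 4.97 FPKM in vehicle. Closest to APLN were UHRF1 (0.50), which maintains DNA methylation, the flap endonuclease gene FEN1 (0.88), C9orf152 (0.89), FAM111B (0.98) and DNASE2B (1.01). UHRF1 was at 3.00 RPKM with SR2211, against 21.8 RPKM in vehicle, and at 0.46 FPKM with XY011, against 14.1 FPKM in vehicle. ADM could not be placed.

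The wider pathway was described with lists of genes by role. HIF1A, EGLN2, KDR, FLT1, FLT4 and KDM3B are given for their roles, after their values were seen. So are the mitophagy genes that were not called. In the HIF machinery, 0 of 9 tested genes were called higher and 2 lower with SR2211, 0 and 2 of 11 with XY011, and 1 and 0 of 11 with ENZ, beside 10.9%, 20.8% and 8.39% of all genes called in either direction. CITED2, an inhibitor of HIF that competes for its coactivators, was at 7.09 RPKM with SR2211, against 27.3 RPKM in vehicle, and at 6.05 FPKM with XY011, against 18.1 FPKM in vehicle (log2 -1.81 and -1.44). HSP90AA1, a chaperone that stabilises HIF1A, was also lower (log2 -1.11 and -1.63). HIF1A itself was at 65.1 RPKM with SR2211, against 38.1 RPKM in vehicle, and at 93.0 FPKM with XY011, against 50.7 FPKM in vehicle (log2 0.76 and 0.86). With ENZ it was at 52.8 FPKM, against 63.5 FPKM in vehicle. EPAS1, which encodes HIF2A, was called higher with ENZ, at 8.81 FPKM, against 3.78 FPKM in vehicle.

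Among 39 other hypoxia genes, 5 were called higher and 6 lower of 33 tested with SR2211, 4 and 8 of 35 with XY011, and 1 and 3 of 37 with ENZ, beside 10.9%, 20.8% and 8.39% of all genes called in either direction. Their median log2 change was -0.46, -0.53 and -0.29, below the median of all genes tested in each pair (-0.07, -0.14 and -0.02). Lower with both SR2211 and XY011 were LDHA (-2.19 and -2.22) and ENO1 (-1.09 and -1.23), both enzymes of glycolysis. So were HILPDA (-1.39 and -1.53), a lipid droplet protein gene, and LOX (-1.24 and -1.33), a collagen crosslinking oxidase. The LOX calls rest on low values, 0.781 RPKM with SR2211, against 3.20 RPKM in vehicle, and 0.24 FPKM with XY011, against 2.12 FPKM in vehicle. TFRC, the transferrin receptor gene, was lower too (-2.37 and -3.18). Higher with both were DDIT4 (3.46 and 3.90), an inhibitor of mTORC1, STC2 (1.11 and 1.78), a secreted glycoprotein gene, and BHLHE40 (1.06 and 2.18), a transcriptional repressor gene. With ENZ, DDIT4 (1.24) was higher, and NDRG1 (-1.77), LDHA (-1.11) and PLOD2 (-1.04), a lysyl hydroxylase gene, were lower. DDIT4 and STC2 are also known targets of the integrated stress response.

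Receptors and partners of the ligands were mostly low, with 4, 5 and 6 of 16 genes reaching 1 in the SR2211, XY011 and ENZ pairs. KDR, the main VEGFA receptor, was at 0.0809 RPKM with SR2211, against 0.0403 RPKM in vehicle, and at 0.17 FPKM with XY011, against 0.11 FPKM in vehicle, and the ENZ table does not list it. Its relative FLT1 was at 1.35 FPKM with XY011, against 2.77 FPKM in vehicle (log2 -0.68). The relative FLT4 was at 4.42 FPKM with ENZ, against 1.92 FPKM in vehicle (log2 0.89). Both were under 1 in the other pairs that list them. NRP1, a coreceptor, was higher with ENZ, at 52.9 FPKM, against 24.9 FPKM in vehicle (log2 1.06), and had changes of 0.22 with SR2211 and 0.57 with XY011. RAMP1, which is part of the CGRP receptor, was lower with SR2211 and XY011 (log2 -1.20 and -1.54). ADM2, a peptide related to adrenomedullin, was higher (1.59 and 1.05). Of 12 other angiogenic factors, 1 was called higher and 0 lower of 6 tested with SR2211, 2 and 1 of 4 with XY011, and 0 and 3 of 6 with ENZ, beside 10.9%, 20.8% and 8.39% of all genes called either way. PDGFA, a growth factor for mesenchymal cells, was at 15.4 RPKM with SR2211, against 2.74 RPKM in vehicle, and at 11.3 FPKM with XY011, against 2.22 FPKM in vehicle (log2 2.13 and 1.94). THBS1, which encodes an inhibitor of vessel growth, was lower with XY011 (log2 -2.55) and ENZ (-1.28), with a change of -0.81 with SR2211. EFNA1 was higher with XY011 (1.65). With ENZ, ANGPT2 was lower, at 0.0233 FPKM, against 1.59 FPKM in vehicle (-1.34). TGFB1 was lower too, at 0.454 FPKM with ENZ, against 2.27 FPKM in vehicle (-1.17). The ANGPT2 and TGFB1 calls rest on low values.

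Mitophagy genes beside BNIP3 and BNIP3L were called higher in 5 of 11 tested with SR2211, 4 of 11 with XY011 and 0 of 10 with ENZ, beside 5.1%, 7.59% and 3.68% of all genes, and none was called lower. Those higher with both SR2211 and XY011 were MAP1LC3B (2.39 and 1.94) and GABARAPL1 (2.05 and 2.45), which coat autophagosomes, and the cargo receptors OPTN (2.14 and 1.87) and CALCOCO2 (1.29 and 1.15). SQSTM1 was higher with SR2211 (1.55, and 0.85 with XY011). The calls thus fell on autophagosome coat and cargo receptor genes. The other tested genes of the list were called with neither SR2211 nor XY011. These were PINK1 (0.66 and -0.10), PARK2 (0.57 and -0.39) and BCL2L13 (0.69 and 0.57). FKBP8 (0.27 and 0.63), PHB2 (0.0003 and -0.29) and TOMM7 (0.28 and 0.67) were the rest. Collagen hydroxylases had 1 higher and 1 lower of 5 with SR2211, 0 of 5 called with XY011 and 1 lower of 6 with ENZ, beside 10.9%, 20.8% and 8.39% of all genes called. The lower one was PLOD2 in both cases, at -1.66 with SR2211, and the higher one P4HA2. The lists overlap: P4HA2, PLOD1 and PLOD2, and KDM4B and KDM4C of the next list, were also counted among the other hypoxia genes. Relatives of KDM3A with the same catalytic domain had 2 of 8 higher with SR2211, 2 of 8 with XY011 and 1 of 7 with ENZ, beside 5.1%, 7.59% and 3.68% of all genes, and 0 lower. KDM6B was higher with all 3 compounds (1.45, 2.03 and 1.54) and JMJD1C with SR2211 and XY011 (1.23 and 1.34), and KDM3B had changes of -0.19, 0.07 and -0.17.

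**Figure D4:**
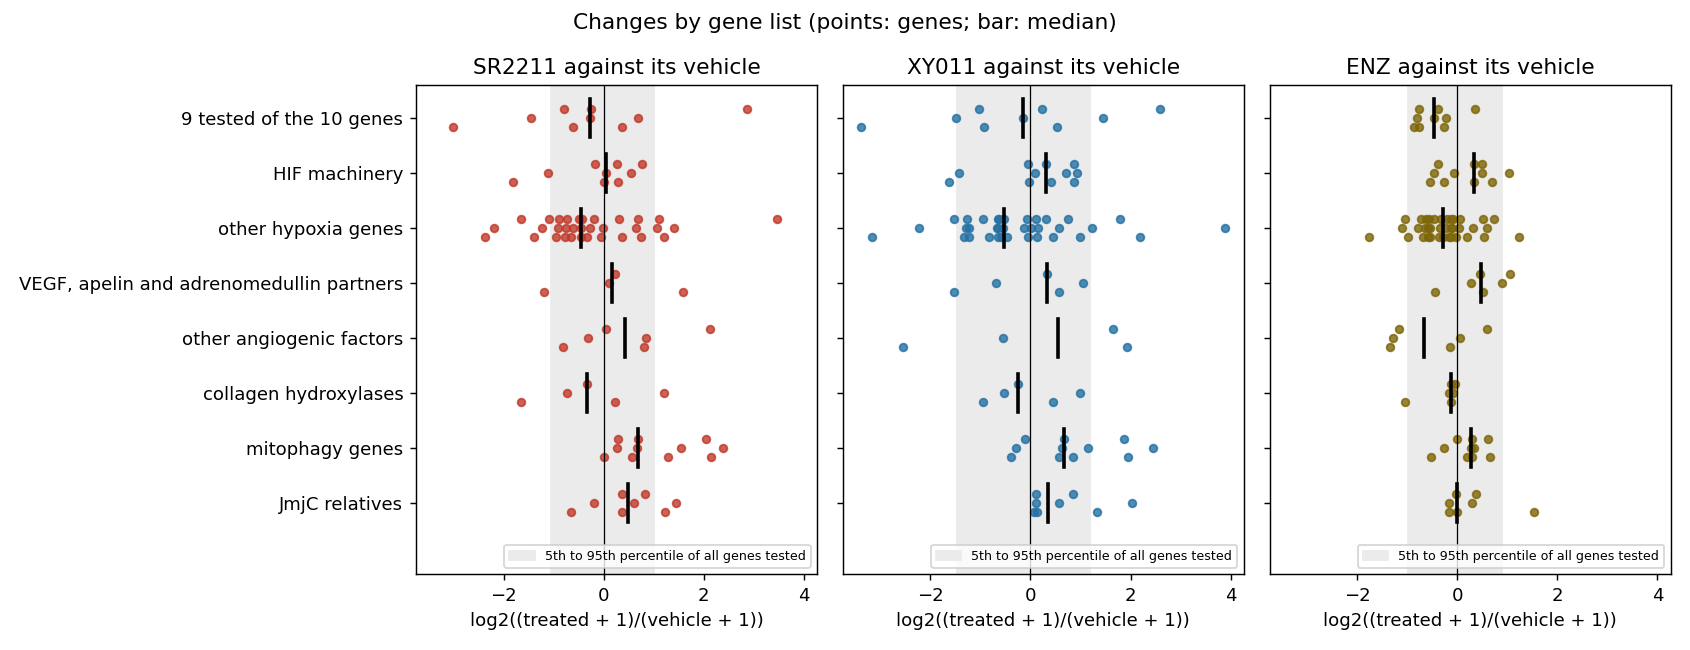
Log2 changes (horizontal axis) of the 9 tested genes and of 7 lists by role in each pair, with a black bar at each median and grey from the 5th to the 95th percentile of all genes tested. The other hypoxia genes spread to both sides with their medians below 0, and the mitophagy genes lie mostly to the right with SR2211 and XY011.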

How the data were processed

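RNA-seq values of 6 libraries were used, 1 for each treatment and 1 vehicle for each. The authors deposited RPKM values for the SR2211 experiment and FPKM values for the XY011 experiment (2 decimals) and the ENZ experiment, per the file headers. BWA, Bowtie, Cufflinks, Cuffdiff, GRCh37 and hg19 are named in the submitters' processing notes. The tool behind each table, its version and annotation, and any use of strand were not given in the sources used here. Genes without reads stand at 0.01, 0.001 and 0 in the 3 experiments. Tables were joined by Entrez identifier, and the ENZ names by current or older symbol (5693 of 22738 unmatched). Unmatched names were kept as entries of their own, also in the ENZ counts over all genes tested.

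Changes were computed with Python 3.11.15 on log2(value + 1), small RNA genes left out. The call rule and the read recovery were tested on simulated data. Reads with a whole gene length were found for 14038 of 15561 genes (90.2%). Mapped reads came from the hairpin genes with 1 read, 16 in vehicle and 26 with SR2211. At that depth, 26 of 26 hairpin genes in vehicle and 34 of 35 with SR2211 gave whole reads within 0.01. Exact binomial intervals are at the 95% level. No p-values are given.

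The genes, the lists and the call rule were chosen with earlier results of these data known. Named list genes passed the size rule in 2 or more pairs or were among the 4 largest called per list and pair. Exceptions were the genes given for their roles and the mitophagy genes not called. Alternatives were pseudocounts of 0.1 and 5, centring, quantile scaling and other filters on low values.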

Additional observations from a re-analysis of the deposited data

Results flagged for a closer look

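Among the 10 genes and the list genes named by the rule, 4 passed the size rule in one experiment and had an opposite log2 change of at least 0.2 in another. With 1 library per group these differences were not tested. KDM3A had log2 changes of 1.45 with XY011 and -0.22 with ENZ, a gap of 1.67. BHLHE40 had 2.18 with XY011 and -0.55 with ENZ, a gap of 2.73. OPTN had 2.14 with SR2211 and -0.52 with ENZ, a gap of 2.66. OPTN was at 8.31 RPKM with SR2211, against 1.12 RPKM in vehicle, and at 11.4 FPKM with ENZ, against 16.8 FPKM in vehicle. SQSTM1 had 1.55 with SR2211 and -0.26 with ENZ, a gap of 1.82. SQSTM1 was at 243 RPKM with SR2211, against 82.2 RPKM in vehicle, and at 199 FPKM with ENZ, against 239 FPKM in vehicle. For OPTN and SQSTM1 the ENZ vehicle thus stood well above the SR2211 vehicle. Doses, units and vehicles differ between these experiments.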

How the results depend on the processing

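No change of the 9 tested genes altered its sign under a pseudocount of 0.1 or 5, centring or quantile scaling, and 102 of 108 values kept their side of the size rule. With a pseudocount of 5, ANKRD37 missed it with SR2211 (-0.77) and XY011 (-0.80) and EGLN3 with XY011 (-0.41), so the XY011 count of called genes was 3. EGLN1 with XY011 passed at a pseudocount of 0.1 (-1.09). The other hypoxia genes called with SR2211 were 6 at a pseudocount of 5. Calls over all genes numbered 1319, 2619 and 1617 with SR2211, XY011 and ENZ. A pseudocount of 5 gave 557, 1059 and 457, a pseudocount of 0.1 gave 2018 with SR2211 and 2771 with ENZ, and a minimum of 5 gave 982 with ENZ, where fewer genes were tested. The share of higher calls was 47.0% with SR2211, 57.3% after centring, and 36.5% with XY011, 49.6% after quantile scaling. Centring took out log2 shifts of -0.09 with SR2211 and -0.12 with XY011. No paired analysis was possible because each group has 1 library and the labels give no replicate numbers. In the SR2211 experiment, where reads were recovered, low read numbers limit ADM, ANKRD37, APLN and EGLN3.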
